A study of Mus musculus with 12 samples.

Results

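Gene expression was compared between the livers of 3 mice labelled liver-null for Txnrd1 and the livers of 3 mice labelled wildtype, all taken 8 hours after acetaminophen (APAP). These 6 arrays are all the APAP arrays of a series of 12, and the difference was described across every annotated gene that passed a filter on low values. All mice were 8-week-old C57BL6/J males. The APAP mice had received 100 mg/kg of the drug into the peritoneum, and the other 6 mice, 3 of each genotype, had received saline by the same route. In the liver-null mice a conditional-null allele of Txnrd1 was disrupted by albCre, a Cre recombinase driven by albumin regulatory sequences and active in hepatocytes. The RNA was total RNA of liver tissue, so Kupffer, endothelial, stellate and other cells, in which albCre is not expected to act, contributed to every value. Whether the wildtype mice carried the unrecombined allele or Cre is not given in the sources used here. Each array was made from a separate mouse, and the number in an array's name is the one that ends its title in the labels.

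Txnrd1 encodes the cytosolic thioredoxin reductase, a selenoenzyme that uses NADPH to keep thioredoxin reduced. Thioredoxin in turn supplies electrons to peroxiredoxins, to ribonucleotide reductase and to other enzymes. The transcription factor NRF2, encoded by Nfe2l2, is held in check by KEAP1, and electrophiles or oxidants that modify KEAP1 let NRF2 reach antioxidant response elements in its target genes, of which Txnrd1 is one. In the liver APAP is mostly cleared by glucuronidation and sulfation, and the part that cytochrome P450 enzymes oxidise becomes a reactive quinone imine that is captured by glutathione. The series title names protection of such livers against APAP toxicity, so the question is which transcripts set the genotypes apart once both had met the drug.

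All values below are on the log2 scale, as deposited for each probe set. Pairwise correlations between the 6 APAP arrays were at least 0.988 across probe sets. Each group contained 1 array whose upper quartile of values was lower than that of the other arrays. Over the 12 arrays this upper quartile was 5.49 to 5.58 on 4 arrays, called the second array set here, and 5.73 to 5.85 on the other 8, called the first array set. In the comparison after APAP the second set was wild-type 14 and liver-null 17, and the labels give no reason for the difference. Beside the results stand values from a fit with the array set as a covariate. For the check of tissue identity, the tested hepatocyte markers had a median percentile of 99.9 within the arrays, and 0 of the 13 passed the threshold between genotypes by limma, with 0 at an unadjusted p under 0.05.

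The targeted gene was not reduced in the livers labelled liver-null, and its 1 expressed probe set was higher there. Txnrd1 read 9.76, 9.59 and 9.70 in wild-type 12, 13 and 14, and 10.37, 10.38 and 10.58 in liver-null 2, 3 and 17. The difference was 0.76 on the log2 scale (SE 0.12), or 1.70-fold, with an adjusted p of 0.0146 (limma, Benjamini-Hochberg over all tested genes). The 2 groups did not overlap. The other probe sets named for Txnrd1 lay near background on all APAP arrays and gave no usable reading. Where the expressed probe set lies relative to the disrupted part of the gene is not given in the sources used here, so this reading does not check the genotype labels. The labels are therefore taken as given, and every direction below is that of the arrays labelled liver-null against those labelled wildtype. The call was lost in the 6 APAP arrays fitted alone, where the difference of 0.76 had an adjusted p of 0.0598. It was also lost when wild-type 13, liver-null 2, liver-null 3 or liver-null 17 was left out, with differences between 0.69 and 0.80 over all 6 such fits.

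Of 8469 genes tested, 65 passed an adjusted p of 0.05 (0.768%). They were 49 genes higher in the liver-null arrays (0.579%) and 16 lower (0.189%). Their sizes were unequal: 33 of the higher genes differed by at least 2-fold and 17 by at least 4-fold, against 7 and 0 of the lower genes. The median difference was 1.28 among the higher genes, -0.83 among the lower genes and -0.0027 over all tested genes. For each of the 65 genes all 3 liver-null arrays lay beyond all 3 wild-type arrays, as they did for 13.9% of all tested genes. In a bulk tissue sample, fewer cells of a type and less RNA per cell cannot be told apart. With the array set as a covariate 185 genes passed (2.18%), 125 higher (1.48%) and 60 lower (0.708%), and these included all 65. Without adjustment, 764 of the 8469 genes had a p under 0.05 in the main fit (limma). These shares over all tested genes are the measure for the list counts below.

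**Figure D1:**
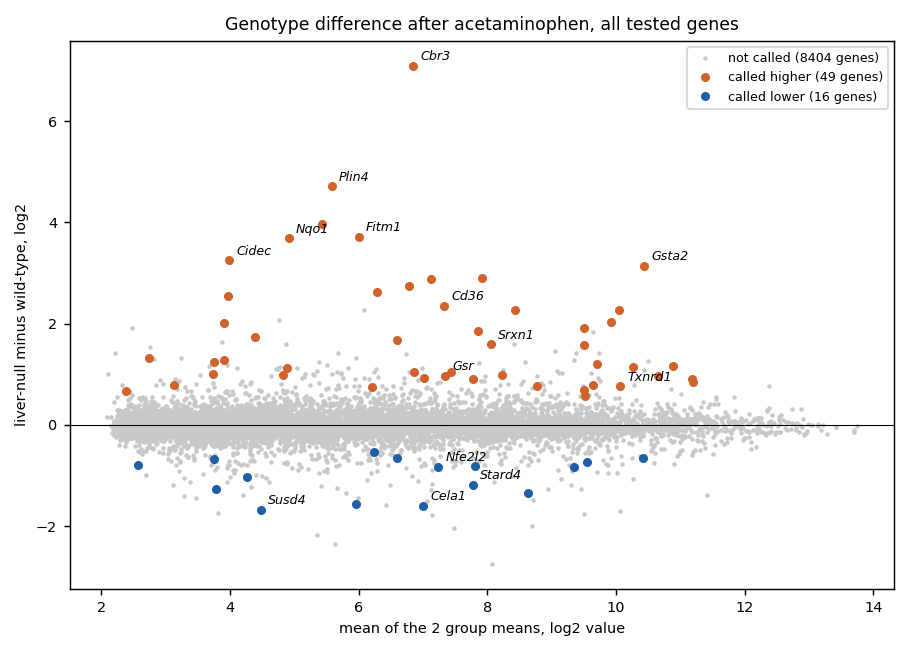
Each point is 1 of the 8469 tested genes, placed by the mean of its 2 group means (horizontal axis, log2 value) and by the liver-null minus wild-type difference after APAP (vertical axis, log2). Orange points are the 49 genes called higher and blue points the 16 called lower, and the higher calls reach a difference of 7.10 where the lower calls reach -1.68.

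NRF2 target genes made up the largest group of calls. Of 31 tested targets, 18 rose and 0 fell, against 0.579% and 0.189% of all tested genes. The median difference was 1.05. These 18 were 36.7% of all genes called higher. They include every call on the lists of carbonyl and quinone enzymes and of glutathione transferases below. They also include every call on the lists of thioredoxin enzymes, glutathione synthesis and NADPH supply. Those lists therefore count the same genes a further time. In 25 of the 31 targets every liver-null array lay above every wild-type array, against 6.97% of all tested genes. The list was chosen with earlier results of these data known, a choice that can favour such counts. The mean level of the list, each gene centred on its mean over the 6 APAP arrays, was -1.01, -0.74 and -0.45 in wild-type 12, 13 and 14 and 0.92, 0.67 and 0.61 in liver-null 2, 3 and 17. The 13 targets that did not pass ranged from values close to zero, as for Gstp1 at -0.01, to 1.41 for Abcc3, 1.28 for Me1 and 1.26 for Gclc. Abcc3, an export pump for conjugates, Gclc, the catalytic subunit of the first enzyme of glutathione synthesis, and the glutathione transferase gene Gstm1 passed with the array set as a covariate (adjusted p 0.0356, 0.0409 and 0.0409, limma). Hmox1, the inducible heme oxygenase, read 8.14 in liver-null 2 but 4.14 and 4.58 in liver-null 3 and 17, against 4.28 to 5.06 in the wild-type arrays. Its groups therefore overlapped, and its difference of 0.94 had an adjusted p of 0.958 (limma).

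Enzymes that reduce carbonyls and quinones contained the gene with the largest difference among all called genes. Cbr3, a carbonyl reductase, read 2.40, 2.23 and 5.27 in the wild-type arrays and 10.48, 10.39 and 10.33 in the liver-null arrays. The difference was 7.10 (SE 1.09; 137-fold; adjusted p 0.0108, limma). Wild-type 14 was the 1 wild-type array in which Cbr3 lay above the 40th percentile of the array, so the fold rests on values near background in the other 2. Leaving out wild-type 12, wild-type 13, liver-null 2 or liver-null 3 ended the call, with differences of 6.56 to 8.08 over the 6 such fits. Nqo1, the NADPH quinone dehydrogenase that detoxifies quinones and a standard readout of NRF2, read 2.39, 3.20 and 3.61 against 6.70, 7.02 and 6.55. Its difference of 3.69 (SE 0.39; 12.9-fold; adjusted p 0.00219) held its call whichever array was left out, with wild-type 12 below the 40th percentile of its array. Cbr1, the related carbonyl reductase, rose by 2.03 (SE 0.30; adjusted p 0.0103). Aox1, an aldehyde oxidase, rose by 1.58 (SE 0.20; adjusted p 0.00424), and Ephx1, the microsomal epoxide hydrolase, by 0.91 (SE 0.15; adjusted p 0.0146). In all, 5 of 25 tested members of this list rose and 0 fell, against 0.579% and 0.189% of all tested genes. The median difference was 0.21.

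Among the glutathione transferases, which join glutathione to electrophiles, 6 of 20 tested members rose and 0 fell, with a median of 0.60. Over all tested genes 0.579% were called higher and 0.189% lower. Gsta2 read 7.69, 9.27 and 9.65 in the wild-type arrays and 11.99, 12.09 and 11.96 in the liver-null arrays. The difference was 3.15 (SE 0.39; 8.85-fold; adjusted p 0.00424, limma), and the liver-null values lay close together while the wild-type values were spread. Mgst3, a membrane-bound transferase, read 4.99, 5.97 and 6.09 against 8.80, 8.95 and 7.95, a difference of 2.88 (SE 0.32; adjusted p 0.00273). Gstm3 and Gstm4, close relatives whose probe sets may bind each other's transcripts, each rose by 2.27 (4.83-fold; adjusted p 0.00219 and 0.00309). Gsta4, which acts on lipid peroxidation products, rose by 1.92 and Gstm2 by 0.98. By contrast Mgst1, at 0.03, Gstz1, at -0.03, and Gstp1, at -0.01, had adjusted p-values of 0.999 by limma.

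**Figure D2:**
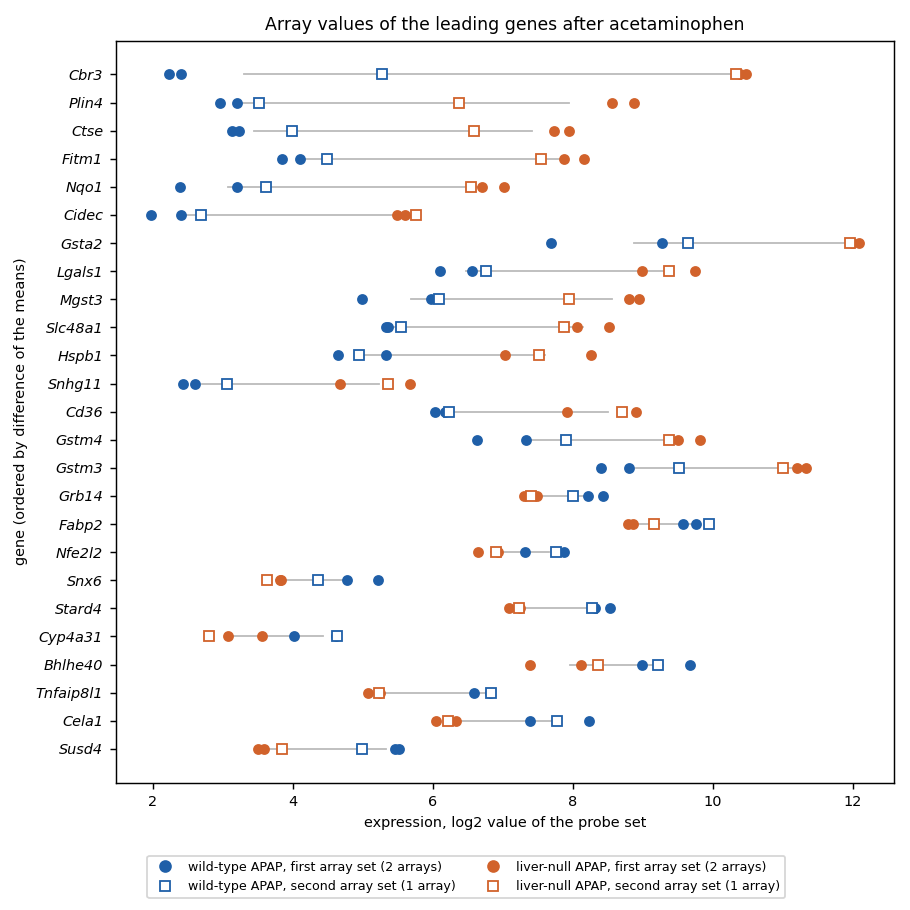
Array values (log2, horizontal axis) of the 15 largest rises and 10 largest falls among called genes after APAP, with wild-type arrays in blue and liver-null arrays in orange. Circles are the arrays of the first array set, open squares the single array per group of the second set, and grey lines join the 2 group means; the groups overlap in none of these genes, and wild-type Cbr3 ranges from 2.23 to 5.27.

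The lists of the thioredoxin and glutathione systems held 2 and 1 calls. Of 25 tested thioredoxin, glutaredoxin and peroxide enzymes, 2 were called higher, Txnrd1 itself and Srxn1, against 0.579% of all tested genes. The median was 0.11. In 6 of the 25 every liver-null array lay above every wild-type array, against 6.97% of all tested genes, and 0 showed the reverse. At an unadjusted p under 0.05 by limma there were 4, against 764 of all 8469 tested genes. Srxn1 encodes sulfiredoxin, which restores over-oxidised peroxiredoxins with electrons from thioredoxin. It read 7.16, 7.13 and 7.50 in the wild-type arrays and 8.87, 8.61 and 9.07 in the liver-null arrays, a difference of 1.59 (SE 0.20; 3.01-fold; adjusted p 0.00434, limma) with no overlap. Txn1, the cytosolic thioredoxin, differed by 0.18 and the mitochondrial reductase Txnrd2 by 0.43, with adjusted p-values of 0.749 and 0.761. In the list of glutathione and cysteine synthesis 6 of 17 tested members had every liver-null array above every wild-type array, and 1 the reverse. Of the 17, 5 had an unadjusted p under 0.05 by limma, against 764 of all 8469 tested genes. In the list 1 was called, as a rise, against 0.579% of all tested genes. This was Gsr, glutathione reductase, the enzyme that keeps glutathione reduced with NADPH. Its mean was 6.86 ± 0.13 (SD, n = 3) in the wild-type arrays and 7.82 ± 0.05 in the liver-null arrays, a difference of 0.97 (SE 0.11; 1.95-fold; adjusted p 0.00326), and no array decided the call. Gclm and Gss, the modifier subunit and the second enzyme of glutathione synthesis, differed by 0.31 and 0.41 with adjusted p-values of 0.574 and 0.541.

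NADPH feeds both reductases, and 2 of 14 tested members of the list of NADPH supply rose, both of the pentose phosphate pathway. Over all tested genes 0.579% were called higher. Pgd, 6-phosphogluconate dehydrogenase, differed by 1.05 (SE 0.16; adjusted p 0.0108, limma), a call that was lost without wild-type 12 or liver-null 2. Tkt, transketolase, differed by 0.85 (SE 0.11; adjusted p 0.00502), reading 10.68 to 10.82 in the wild-type arrays and 11.50 to 11.70 in the liver-null arrays. Malic enzyme Me1 read 8.04, 9.12 and 8.96 against 10.06, 9.83 and 10.07 and had an adjusted p of 0.0900.

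Both calls on the glucuronidation list concern supply of the sugar donor, not the transferases. Ugdh makes UDP-glucuronic acid from UDP-glucose. It read 10.42, 10.14 and 10.35 in the wild-type arrays and 11.52, 11.44 and 11.42 in the liver-null arrays, a difference of 1.15 (SE 0.15; 2.23-fold; adjusted p 0.00424, limma). Slc35d1, a nucleotide sugar transporter that carries UDP-glucuronic acid into the endoplasmic reticulum, rose by 0.58 (SE 0.11; adjusted p 0.0461), and its call was lost whichever array was left out. The list had 16 tested members with a median of 0.12. The heme genes on the list of heme and iron included Slc48a1, a heme transporter, at 5.33, 5.36 and 5.55 against 8.51, 8.06 and 7.88 (difference 2.74, SE 0.32, adjusted p 0.00309), and Blvrb, biliverdin reductase B, at 1.20 (adjusted p 0.0377).

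The cytochrome P450 list showed 1 call among 37 tested genes, against 0.768% of all tested genes. Cyp4a31, of a fatty acid hydroxylase family whose near-identical members can share probes, fell by 1.28 (SE 0.25; adjusted p 0.0426, limma), and leaving out wild-type 12, wild-type 14, liver-null 2 or liver-null 17 ended the call. The P450 genes best known for oxidising APAP, named for that role and not for their values, did not pass. Cyp2e1 read 13.12, 13.09 and 13.21 against 13.12, 13.16 and 13.18 (difference 0.02, adjusted p 0.999). Cyp1a2 differed by 0.17 and Cyp3a11 by -0.09, with adjusted p-values of 0.922 and 0.940.

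Promoter sequence was set beside these calls by searching for TGACNNNGC, the core of the antioxidant response element, on both strands. The windows run from 250 bases before to 50 after each RefSeq start (build GRCm38.p6). Of genes called higher, 9 of the 40 with a promoter in the table held the motif (22.5%), as did 3 of the 12 called lower (25%) and 17.1% of the 6891 tested genes with one. The called genes' shares were thus near that of all genes. The search also counted 2 fixed forms of the same length, with every base given, known from NRF2 and small MAF proteins. TGACTCAGC is itself a case of the core, and TGAGTCAGC is not. The first was held by 0.580% of all such genes and the second by 0.508%, and each by 1 gene called higher and 0 called lower. The sequences that follow run 5′ to 3′ on the gene's strand, with matches to either search in capitals. They are the 250 bases before the start of the targeted gene, of the 2 genes called higher with a fixed form, and of Nfe2l2. The Txnrd1 window is chr10:82858956-82859205 on the plus strand, that of Srxn1 is chr2:152105274-152105523 on the plus strand, that of Acox2 is chr14:8259020-8259269 on the minus strand, and that of Nfe2l2 is chr2:75704664-75704913 on the minus strand.
Txnrd1: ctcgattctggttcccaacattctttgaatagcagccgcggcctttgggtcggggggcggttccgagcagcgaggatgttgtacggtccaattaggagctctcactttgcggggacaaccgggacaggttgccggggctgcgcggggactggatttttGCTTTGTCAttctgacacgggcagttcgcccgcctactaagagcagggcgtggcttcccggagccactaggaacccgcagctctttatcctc
Srxn1: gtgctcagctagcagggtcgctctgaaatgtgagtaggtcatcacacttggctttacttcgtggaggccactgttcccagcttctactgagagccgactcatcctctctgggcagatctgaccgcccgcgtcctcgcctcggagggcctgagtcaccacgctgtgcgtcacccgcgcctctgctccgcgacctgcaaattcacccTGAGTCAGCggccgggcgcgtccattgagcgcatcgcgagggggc
Acox2: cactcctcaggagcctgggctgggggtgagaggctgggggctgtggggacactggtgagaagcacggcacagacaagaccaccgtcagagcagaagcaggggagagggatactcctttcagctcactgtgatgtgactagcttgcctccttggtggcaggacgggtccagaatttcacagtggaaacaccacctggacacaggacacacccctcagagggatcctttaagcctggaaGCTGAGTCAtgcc
Nfe2l2: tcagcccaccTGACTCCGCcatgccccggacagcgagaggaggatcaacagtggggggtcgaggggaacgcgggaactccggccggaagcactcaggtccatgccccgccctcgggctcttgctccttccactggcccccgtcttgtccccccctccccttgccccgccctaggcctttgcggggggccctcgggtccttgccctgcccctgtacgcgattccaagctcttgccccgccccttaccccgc

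The core in Txnrd1 and the fixed forms in Srxn1 and Acox2 start 92, 45 and 13 bases before the annotated start. That in Nfe2l2 starts 240 bases before it. A match describes letters in a window, and these data measured no binding. Acox2, a peroxisomal oxidase of the bile acid side chain, read 9.12, 9.36 and 9.28 in the wild-type arrays and 10.10, 10.06 and 9.95 in the liver-null arrays, a difference of 0.78 (SE 0.12; adjusted p 0.0103, limma). It was the single call among 18 tested genes of bile acid synthesis, and it was lost without liver-null 2 or liver-null 3.

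The regulators of NRF2 gave 1 call among 14 tested genes, and it was a fall of Nfe2l2 itself. Nfe2l2 read 7.32, 7.88 and 7.76 in the wild-type arrays and 6.64, 6.94 and 6.90 in the liver-null arrays. The difference was -0.83 (SE 0.16; 1.78-fold lower; adjusted p 0.0429, limma), without overlap between the groups. The call was lost without wild-type 13, wild-type 14, liver-null 2, liver-null 3 or liver-null 17, though no difference over the 6 fits was nearer to zero than -0.72. It was also lost in the 6 APAP arrays alone, at an adjusted p of 0.139. Keap1 differed by 0.05, the small MAF gene Mafg by 0.44 and the competing repressor gene Bach1 by 0.58, with adjusted p-values of 0.999, 0.665 and 0.761 (limma).

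Lipid droplet and lipid uptake genes gave the second group of large rises. Of 26 tested members 5 rose and 1 fell, against 0.579% and 0.189% of all tested genes. The median, at 0.03, was near that of all genes. Plin4, a perilipin that coats lipid droplets, read 2.95, 3.20 and 3.52 in the wild-type arrays and 8.88, 8.57 and 6.38 in the liver-null arrays. Its difference was 4.71 (SE 0.74; 26.2-fold; adjusted p 0.0122, limma), and liver-null 17, of the second array set, lay well below the other 2 liver-null arrays. Fitm1, a membrane protein that aids droplet formation, read 4.10, 3.84 and 4.48 against 8.16, 7.88 and 7.54 (difference 3.72, adjusted p 0.0142). Cidec, which fuses lipid droplets, read 1.98, 2.40 and 2.69 against 5.60, 5.48 and 5.76 (difference 3.26, adjusted p 0.0103). As for Cbr3, wild-type 14 was the 1 wild-type array above the 40th percentile for Cidec, so the size of its difference rests on values near background in the other 2. For Plin4 and Fitm1 the call was lost without wild-type 12, wild-type 13, liver-null 2 or liver-null 3, and for Cidec without liver-null 2, though no difference moved by more than 1.5 times.

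Cd36, a fatty acid transporter, read 6.18, 6.03 and 6.23 in the wild-type arrays and 7.92, 8.90 and 8.70 in the liver-null arrays, a difference of 2.36 (SE 0.22; 5.13-fold; adjusted p 0.00219, limma) that held its call whichever array was left out. Pparg, a nuclear receptor that drives fat storage genes and is known to control Cidec and Cd36, had a mean of 3.53 ± 0.23 (SD, n = 3) in the wild-type arrays and 5.26 ± 0.55 in the liver-null arrays. Its difference was 1.73 (SE 0.27; 3.32-fold; adjusted p 0.0122), and the call was lost without wild-type 13. It was the 1 call among 24 tested nuclear receptors and xenobiotic sensors. The member that fell was Fabp2, an intestinal-type fatty acid binding protein, at -0.83 (SE 0.16; adjusted p 0.0426). Other droplet genes did not pass. Plin2 read 10.91, 10.47 and 10.64 against 10.17, 9.74 and 10.29, with the liver-null arrays lower (difference -0.61, adjusted p 0.631), and Plin5 overlapped between the groups (difference 1.10, adjusted p 0.571). Of the adipose genes on the list of carry-over from other tissues, Fabp4 read 6.87, 6.05 and 5.71 in the wild-type arrays and 6.07, 6.36 and 5.70 in the liver-null arrays, and Retn stayed between 2.36 and 2.74.

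Genes of fatty acid synthesis gave no call by limma among 28 tested, with a median of -0.27. Of the 28, 13 had an unadjusted p under 0.05 by limma, against 764 of all 8469 tested genes. In 9 members the liver-null arrays all lay below the wild-type arrays, as they did for 6.91% of all tested genes. The largest differences were those of Angptl8, an insulin-responsive hepatokine, at 8.40, 10.23 and 9.72 against 5.41, 6.81 and 7.90 (-2.74, adjusted p 0.0605, limma), and of Elovl6, an elongase, at -2.05 (adjusted p 0.171). Fasn, fatty acid synthase, read 8.96, 10.52 and 9.60 in the wild-type arrays and up to 9.01, in liver-null 17, among the liver-null arrays, so its groups overlapped. With the array set as a covariate 3 members fell, among them Angptl8 (adjusted p 0.0225) and the desaturase gene Fads1 (adjusted p 0.0331).

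The list of sterol synthesis and uptake had the lowest median of all lists drawn in the plot of lists, at -0.55, and 16 of its 27 tested members had every liver-null array below every wild-type array, against 6.91% of all tested genes. Yet 1 member was called. Stard4, a cholesterol carrier protein, read 8.53, 8.31 and 8.27 in the wild-type arrays and 7.08, 7.24 and 7.24 in the liver-null arrays, a difference of -1.18 (SE 0.15; 2.27-fold lower; adjusted p 0.00447, limma) that held whichever array was left out. Wild-type 12 stood high in the list, with a mean centred level of 0.66 against 0.16 and 0.01 in wild-type 13 and 14 and -0.41, -0.10 and -0.33 in the liver-null arrays. Squalene epoxidase Sqle shows this, at 9.13, 7.29 and 7.02 against 5.98, 7.38 and 5.57. The same wild-type 12 array had the highest acute phase level, 0.89 against -0.85 in wild-type 13, and the part of this in the sterol values was not tested.

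**Figure D3:**
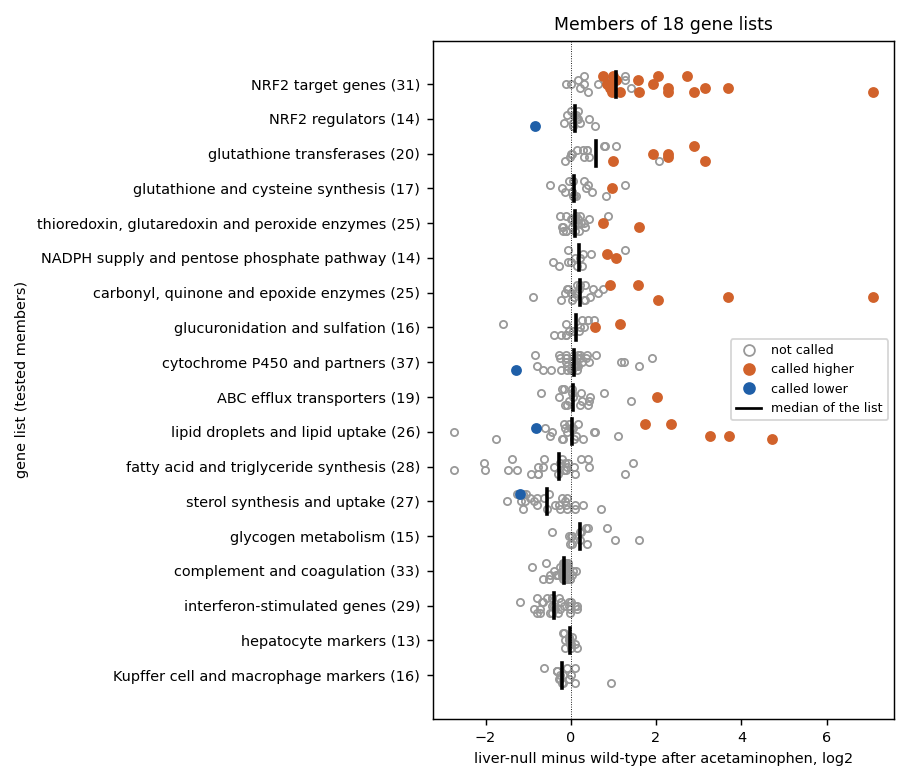
Liver-null minus wild-type differences after APAP (log2, horizontal axis) for the tested members of the named gene lists, with the number of tested members in brackets. Orange and blue points are members called higher and lower, open points are members not called, and black bars are list medians, from 1.05 for NRF2 target genes to -0.55 for sterol synthesis and uptake.

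Most falls lay outside the lists above. Susd4, a complement regulator on the male-biased list, read 5.46, 5.52 and 4.99 in the wild-type arrays and 3.50, 3.59 and 3.85 in the liver-null arrays. Its difference of -1.68 (SE 0.26, 3.20-fold lower, adjusted p 0.0108, limma) was the largest fall. The call was lost without wild-type 12, wild-type 13, liver-null 2 or liver-null 3. The male-biased list had 16 tested members, 2 of them with positive differences, and a median of -0.44. In 6 of the 16 all liver-null arrays lay below all wild-type arrays, against 6.91% of all tested genes. With the array set as a covariate 3 members were called lower, and in the saline contrast 3. Bhlhe40, a clock-related repressor, fell by 1.34 (SE 0.26; adjusted p 0.0429), and its call held only when liver-null 17 was left out. Grb14, an adaptor that dampens insulin receptor signalling, fell by 0.81 (SE 0.16; adjusted p 0.0461), a call that held only without wild-type 14. On the list of zonation markers Rhbg, an ammonia transporter of pericentral hepatocytes, rose by 1.12 and Rnf43, a membrane ubiquitin ligase that lowers Wnt signalling, fell by 0.67 (adjusted p 0.0103 and 0.0429). The 18 zonation markers tested had a median of -0.03.

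Cela1, an elastase, fell from 7.39, 8.23 and 7.78 to 6.33, 6.05 and 6.22, a difference of -1.60 (SE 0.22; 3.03-fold lower; adjusted p 0.00713, limma), and no array decided the call. It stood on the list of pancreas, fat, muscle and blood carry-over as a pancreatic enzyme. The list's mean centred level was 0.05 to 0.21 in the wild-type arrays and -0.18 to -0.06 in the liver-null arrays. Cela1 itself is part of that mean, which is therefore no separate reading of carry-over. Of the 9 tested members 1 passed, and 4 had positive differences. The pancreatic elastases Cela2a and Cela3b stayed between 2.20 and 2.84 on all 6 arrays, so the acinar markers measured here were near background where Cela1 was not.

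Markers of other liver cells gave no call by limma. Of 16 tested Kupffer cell and macrophage markers 0 passed, with 1 at an unadjusted p under 0.05, and their mean level ranged from -0.14 to 0.29 in the wild-type arrays and from -0.64 in liver-null 17 to 0.46 in liver-null 2. Endothelial markers ranged from -0.29 to 0.07 and from -0.24 to 0.24, and stellate cell markers from -0.03 to 0.14 and from -0.25 to 0.01. At an unadjusted p under 0.05 by limma there were 0 of 17 endothelial and 2 of 18 stellate cell markers, against 764 of all 8469 tested genes. All these ranges overlapped between the genotypes. Positive differences numbered 4 of 16 Kupffer cell and macrophage, 11 of 17 endothelial and 2 of 18 stellate cell markers. The medians were -0.20, 0.03 and -0.15, against -0.0027 over all tested genes. The 5 neutrophil and 5 lymphocyte markers tested, of 12 and 15 on the array, were also without a call, with 1 and 0 at an unadjusted p under 0.05; with the array set as a covariate 1 neutrophil and 1 stellate cell marker were lower. Positive differences numbered 0 of the 5 neutrophil and 2 of the 5 lymphocyte markers, with medians of -0.36 and -0.0011. The part of cell mixture in the differences of single genes was not tested.

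The lists of interferon-stimulated genes and of complement and coagulation genes had low medians without calls by limma. Of their 29 and 33 tested members 7 and 8 had an unadjusted p under 0.05 by limma, against 764 of all 8469 tested genes. Susd4 and tissue factor F3, both called lower, stood outside the complement and coagulation list. Of 29 interferon-stimulated genes 12 had all liver-null arrays below all wild-type arrays, against 6.91% of all tested genes, with a median of -0.40. Usp18, an interferon-induced protease, had the largest difference, at 5.69, 6.50 and 5.86 against 4.88, 5.05 and 4.52 (-1.20, adjusted p 0.272, limma). Of 33 complement and coagulation genes 16 were separated the same way, with a median of -0.17. C6 had the largest difference, at 9.96, 9.93 and 9.44 against 9.02, 8.49 and 9.06 (-0.92, adjusted p 0.0924), and passed with the array set as a covariate (adjusted p 0.0419).

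The lists of stress responses other than that of NRF2 held 1 call, on the heat shock list. In the heat shock list 5 of 20 tested genes had all liver-null arrays above all wild-type arrays, against 6.97% of all tested genes. Of the 20, 1 was called, as a rise, against 0.579% of all tested genes. This was Hspb1, a small heat shock protein, which read 4.64, 5.33 and 4.95 in the wild-type arrays and 8.26, 7.03 and 7.52 in the liver-null arrays, a difference of 2.63 (SE 0.46; 6.19-fold; adjusted p 0.0226, limma). Its call held only when liver-null 3 was left out. By limma at the same threshold 0 of 24 genes of the unfolded protein response and 0 of 20 of the integrated stress response passed. Of the p53 response 0 of 13 passed, and the same 0 was found in all 3 lists with the array set as a covariate. Over all tested genes 0.768% passed, and 2.18% with the covariate. At such shares a count of 0 does not set lists of this size apart. At an unadjusted p under 0.05 by limma these 3 lists had 0, 3 and 2 members, against 764 of all 8469 tested genes. In 0, 4 and 3 members the groups of arrays did not overlap, against 13.9% of all tested genes. All 4 of the integrated stress response were higher in the liver-null arrays, against 6.97% of all tested genes in that direction. The mitochondrial respiratory chain (39 tested genes, median 0.07) and the proteasome (33 and 0.03) also had 0 calls in both fits. At an unadjusted p under 0.05 by limma they had 0 and 2 members, against 764 of all 8469 tested genes. Their 5 and 2 members without overlap were all higher in the liver-null arrays, against 6.97% of all tested genes in that direction. Of the 39 and 33 differences, 31 and 22 were positive.

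The array set as a covariate added 120 genes to the 65, 76 higher and 44 lower. In 107 of the added genes the groups did not overlap, against 13.9% of all tested genes, which choosing genes by p favours. Of the 120, 97 stood on none of the gene lists. The largest added rise was Gstt3, a theta-class glutathione transferase, at 2.97, 4.09 and 4.14 against 4.82, 6.69 and 5.89 (2.07; adjusted p 0.0958 without and 0.0356 with the covariate, limma). Cyp2c38 followed at 1.59, Smpx at 1.42, with wild-type values of 1.39 to 1.69 near background, and Abcc3 at 1.41. The largest added falls were Angptl8 at -2.74, Ccnd1, the G1 cyclin, at -2.18, and Fdft1, squalene synthase, at -1.06. Gbe1, the glycogen branching enzyme, rose in that fit too (difference 1.03, adjusted p 0.0164).

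Within the array sets the differences were larger in the first set for 45 of the 65 genes. Because no called gene overlapped between groups, the sign within each set was fixed by the choice of genes, and the sizes alone are informative. The median ratio of the second set's difference to the first set's was 82.4%. Cbr3 differed by 8.12 in the first set and 5.06 in the second, Plin4 by 5.64 and 2.86, and Mgst3 by 3.40 and 1.86. Srxn1 gave nearly equal values, 1.60 and 1.58, and Tceal8 was larger in the second set, 2.35 against 1.60. The second set holds 1 array per group, so the error of its differences cannot be estimated.

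**Figure D4:**
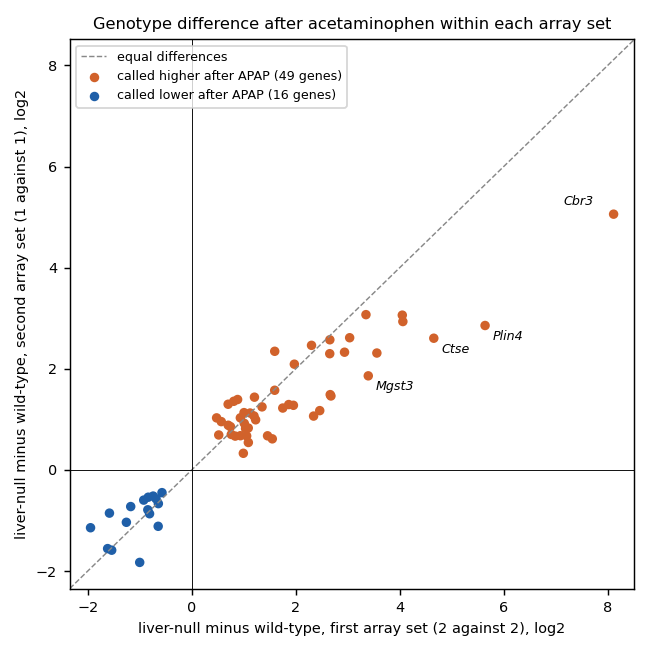
Liver-null minus wild-type differences after APAP for the 65 called genes within the first array set (2 against 2 arrays, horizontal axis, log2) and within the second (1 against 1 array, vertical axis, log2), with orange and blue for genes called higher and lower. The dashed line marks equal differences; 45 genes are farther from zero in the first set, among them Cbr3 at 8.12 against 5.06.

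Other probe sets of the same genes read the same RNA a further time. Of the 65 genes, 19 had another probe set past the filter, and 30 of these 32 probe sets had the same sign, 17 of them called in a fit over probe sets. Ctse, an aspartic protease, was the exception with a call: its brighter probe set read 3.14, 3.23 and 3.99 in the wild-type arrays and 7.74, 7.94 and 6.59 in the liver-null arrays (difference 3.97), while the other differed by -1.87 (adjusted p 0.0475, limma). By its brighter probe set alone Ctse is counted among the 49 genes called higher and drawn with the largest rises. Its direction is not settled. For Abcc5, an export pump called at 2.01 (adjusted p 0.0394), 1 of 3 other probe sets past the filter differed by -0.05. A single probe set was all that 44 of the 65 genes had.

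Leaving out single arrays reduced the number of calls more than it moved the differences. The counts were 35 without wild-type 12, 32 without wild-type 13, 49 without wild-type 14, 21 without liver-null 2, 29 without liver-null 3 and 59 without liver-null 17. Of the 65 genes, 19 kept their call in all 6 fits, 9 lost it in all 6 and 37 lost it in some. The 19 were Stard4 and Cela1 among the falls and 17 genes called higher, namely Nqo1, Gsta2, Mgst3, Gstm2, Gstm3, Gstm4, Srxn1, Gsr, Aox1, Ugdh, Tkt, Slc48a1, Cd36, Ctse, Snhg11, Tceal8 and Pcp4l1. Of these Ctse had probe sets called in opposite directions. The 9 were Rdh16, Creld1, Ermp1, Lad1, Anxa13 and Slc35d1 among the rises and Rnf43, Pnpla7 and F3 among the falls. In the 6 APAP arrays fitted alone 39 genes passed (0.461%), 35 of them among the 65. In the 8 arrays of the first set alone 44 passed (0.52%), 25 of them among the 65, a fit chosen after the data were seen. When probe sets were counted in place of genes, 99 of 13124 passed (0.754%).

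The same genotype contrast in the saline livers, made with 6 other mice, gives the background of these differences without the drug. There 54 genes passed (0.638%), 31 higher (0.366%) and 23 lower (0.272%), and of the genes called after APAP 27 of the 49 higher and 6 of the 16 lower passed in saline too. All 65 had the same sign in both. For 58 of the 65 the difference was smaller in saline, a direction that choosing the genes after APAP favours. The difference between the contrasts was tested for every gene, and 0 of 8469 passed by limma (0%), with 109 at an unadjusted p under 0.05 and a lowest adjusted p of 0.999. With the array set as a covariate 0 passed and 326 had an unadjusted p under 0.05. A p that misses the threshold does not show that the contrasts are equal.

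Among the 65 genes 6 had an unadjusted p under 0.05 for that difference. The lowest was that of Hspb1, which differed by 2.63 after APAP and by 0.59 in saline (difference of the differences 2.04, SE 0.65, unadjusted p 0.00878, adjusted p 0.999, limma). Acox2 differed by 0.78 and 0.27 (unadjusted p 0.00998) and Slc48a1 by 2.74 and 1.71 (unadjusted p 0.0426). At the other end, Txnrd1 differed by 0.76 and 0.74, Cd36 by 2.36 and 2.30 and Ctse by 3.97 and 3.89.

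**Figure D5:**
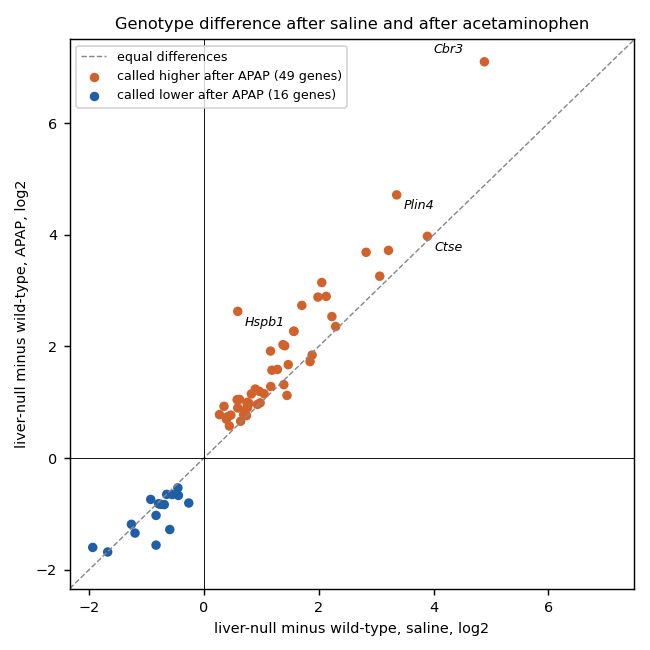
Liver-null minus wild-type differences for the 65 genes called after APAP, in the saline livers (horizontal axis, log2) and after APAP (vertical axis, log2), with orange and blue for genes called higher and lower. The dashed line marks equal differences; all points lie in the quadrants of equal sign, and Hspb1 lies far from the line at 2.63 after APAP against 0.59 in saline.

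Genes beside a targeted locus can carry the chromosome of the cells in which the allele was made. Of the 40 tested genes nearest to Txnrd1 in RefSeq order, 20 on each side, 1 was called. This was Chpt1, a choline phosphotransferase and the farthest on its side, at 10.02, 10.30 and 10.20 against 11.26, 11.13 and 11.02 (difference 0.96, SE 0.17, adjusted p 0.0218, limma). All 4 of its probe sets were higher in the liver-null arrays. Of the 40 genes 6 had groups without overlap (15%), near the 13.9% of all tested genes, and their median difference was -0.05.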

How the data were processed

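Total RNA of 12 livers was labelled in 1 cycle and hybridised to Affymetrix arrays, per the labels' protocols. The authors' deposited log2 values came from RMA, per the submitters' processing notes, which corrects background, normalizes and summarises probes; its version and settings are not stated there. The table's 22690 probe sets include 64 controls. Of the rest 20380 have 1 gene symbol, 691 several and 1555 none listed, in the platform annotation, which can be old, and 20351 Entrez identifiers matched RefSeq GRCm38.p6.

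A gene was its 1-symbol probe set with the highest mean, and 8469 of 12393 genes were tested, those above the array's 40th percentile on at least 3 of 12 arrays. Every adjusted p comes from limma 3.58.1 in R 4.3.3 (lmFit, eBayes), fitted with 4 group means over 12 arrays (8 residual and 3.43 prior degrees of freedom), two-sided with Benjamini-Hochberg adjustment over all tested genes and a threshold of 0.05. SE is the fit's standard error. The code was tested on simulated data. Precision is limited by having 3 arrays in a group.

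The members and gene lists were chosen with earlier results of these data known. Named were Txnrd1, any called gene, the 15 largest rises and 10 largest falls with all values, up to 6 called members a list or else the 2 with the largest difference, the 10 largest of each direction called only with the covariate, and the 5 largest differences not called. Further list members were named after their values were seen. Lists got counts and medians, no test. The array set was defined by the largest gap in the arrays' upper quartiles. Alternatives were the array set as a covariate, 6 arrays alone, array weights, other filters, quantile normalization, the mean over probe sets, probe sets in place of genes, trended robust moderation and each array left out. Fits on the first array set alone, and on 6 arrays with the covariate, were added after seeing the data. Promoters are from RefSeq, those of chromosome 18 not used here.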

Additional observations from a re-analysis of the deposited data

How the results depend on the processing

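The 65 calls became 185 with the array set as a covariate, 210 with array weights, 98 with trended robust moderation, 39 in the 6 APAP arrays alone, and 99 with probe sets in place of genes. They were 66 with no filter on low values, 61 with the filter at the 60th percentile, 89 after quantile normalization and 83 with the mean over probe sets. After the data were seen, 2 fits were added, which gave 44 in the first array set alone (25 of the 65) and 51 in 6 arrays with the covariate. Leaving out 1 array gave 21 to 59. Txnrd1 lost its call in 6 arrays alone (0.76, adjusted p 0.0598, limma), in the first set alone (0.70, adjusted p 0.0774) and with the mean over its probe sets (0.18, adjusted p 0.496), and without 1 array it ranged from 0.69 to 0.80. Its adjusted p ranged from 0.00277 to 0.496 over the alternatives. For the difference between the APAP and saline contrasts 0 genes passed in each fit that could give it; 6 arrays alone cannot.

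Quantile normalization moved the median of all genes by -0.008. No called gene changed sign in the fits on genes, of which the filter at the 60th percentile kept 61 of the 65. In the fit over probe sets, 1 other probe set of Ctse (-1.87) and 1 of Abcc5 (-0.05) had the opposite sign. Signs changed for 3 genes without a call. Sox9 (0.017) became -0.087 with array weights and -0.058 in the first set alone, and ranged from -0.058 to 0.084 without 1 array. Ms4a1 (0.069) became -0.019 in the first set alone and ranged from -0.049 to 0.17 without 1 array. Gadd45g (1.12) ranged from -0.18 without liver-null 3 to 2.21. No paired analysis was possible because the groups share no replicate number. The cause of these changes was not tested.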

Other observations

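Of the 65 genes, 27 stood on none of the gene lists, 20 higher and 7 lower in the arrays labelled liver-null. Lgals1, which encodes galectin-1, a sugar-binding protein, read 6.56, 6.10 and 6.76 in the wild-type APAP arrays and 9.75, 8.99 and 9.38 in the liver-null APAP arrays, a difference of 2.90 (SE 0.43; 7.45-fold; adjusted p 0.0103, limma). The call was lost without wild-type 13 or liver-null 2. Snhg11, a small nucleolar RNA host gene, read 2.43, 2.60 and 3.06 against 5.67, 4.68 and 5.36 (difference 2.54, adjusted p 0.00639), and Neat1, the long noncoding RNA of paraspeckles, rose by 1.15 (adjusted p 0.0122). Tceal8 rose by 1.85 (adjusted p 0.00933) and Rdh16, a retinol dehydrogenase, by 1.68 (adjusted p 0.0461). Pcp4l1 rose by 1.32, with all 3 wild-type arrays below the 40th percentile of their array. Among the 7 falls, Tnfaip8l1 read 6.82, 6.59 and 6.82 against 5.08, 5.25 and 5.24 (difference -1.56, SE 0.23, adjusted p 0.0103), and Snx6, a sorting nexin, fell by 1.02 (adjusted p 0.0429). Tissue factor F3 read 2.89, 2.94 and 3.09 against 2.31, 2.24 and 1.97 and fell by 0.80 (adjusted p 0.0450). The lists therefore left 41.5% of the called genes without a group.

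The called NRF2 targets were more spread among the wild-type livers than among the liver-null livers after APAP. For 13 of the 18 the SD of 3 arrays was larger in the wild-type group, with median SDs of 0.36 and 0.13 on the log2 scale. Over all tested genes the wild-type SD was the larger in 58.9%, with medians of 0.20 and 0.17. Wild-type 12 had the lowest wild-type value in 11 of the 18 and wild-type 14 the highest in 13. No test was made of this spread.

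The 5 largest differences that did not pass were those of Angptl8 at -2.74, Klf10, a zinc finger factor, at -2.35, Asns, asparagine synthetase, at 2.26, Ccnd1 at -2.18 and Gstt3 at 2.07. Their adjusted p-values by limma were 0.0605, 0.0958, 0.457, 0.0618 and 0.0958, and with the array set as a covariate Angptl8, Ccnd1 and Gstt3 passed. For each of the 5 all 3 liver-null arrays lay beyond the 3 wild-type arrays, as they did for 13.9% of all tested genes. Choosing the largest differences favours such separation.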
